A study of Homo sapiens with 6 samples.

Results

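The interferon-stimulated genes followed here were a set of 41 gene symbols drawn from general knowledge of the antiviral response. The set was chosen with earlier results of these data known. All 41 were listed among the 56638 symbols of each count table. RNA had been sequenced from HCT116, a line derived from a human colorectal carcinoma. Cells carrying ZFP90 KO, made with guide RNAs against exon 3 of ZFP90 (a gene for a KRAB zinc-finger protein), gave 3 libraries and control cells gave the other 3. Both groups were at passage 16-19 in RPMI-1640 with fetal bovine serum, and each library used 1 µg of total RNA. No interferon or virus is named in the labels, which also do not say what the control cells received, whether the edited cells were 1 clone, or whether replicates were separate cultures. The p-values below therefore cover the variation among the 6 libraries and no more, and that variation may be technical.

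Interferons are secreted proteins that cells release on sensing viral nucleic acid. Once bound, their receptors activate the kinases JAK1 and TYK2, and a complex that contains STAT2 and IRF9 then binds a DNA element named ISRE, the interferon-stimulated response element, in front of target genes. The products include sensors of foreign RNA, enzymes that degrade or block RNA, and membrane proteins that stop viral entry. Many of these genes also have a basal level without added interferon, and several lie side by side as copies of one another.

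Promoter windows show what most of these genes have in common in sequence. RefSeq windows on GRCh38.p14, from 250 bases before to 50 after a gene's start, were matched for 34 of the 41 genes, 1 of them (DDX58) by its newer symbol. GAAA, any 2 bases and GAAA again was searched on both strands as the ISRE core (TTTC, any 2 bases and TTTC when the match is on the other strand). It occurred in a window of 25 of these 34 genes (73.5%), against 1195 of all 27305 genes with a window (4.38%). The windows below belong to genes on which the later results turn, with every match in capitals. DDX60 and DDX60L are neighbours that both rose, and IFIT1 and IFIT5 are neighbours that fell by unequal amounts. The DTX3L window also holds the match of PARP9, which is transcribed the other way. OAS1 had the highest fold change of the tested interferon-stimulated genes and no match. Its window does hold GAAA, 1 base and GAAA again, which the search does not count. All are 5′ to 3′ on the gene's own strand.
DDX60, minus strand, chr4:168318703-168319002: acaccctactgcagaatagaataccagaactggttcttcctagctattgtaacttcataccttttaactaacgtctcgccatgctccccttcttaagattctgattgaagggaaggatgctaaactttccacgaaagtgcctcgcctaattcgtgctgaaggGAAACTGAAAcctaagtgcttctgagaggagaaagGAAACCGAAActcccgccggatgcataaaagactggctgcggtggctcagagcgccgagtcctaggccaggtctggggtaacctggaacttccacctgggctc
DDX60L, minus strand, chr4:168480443-168480742: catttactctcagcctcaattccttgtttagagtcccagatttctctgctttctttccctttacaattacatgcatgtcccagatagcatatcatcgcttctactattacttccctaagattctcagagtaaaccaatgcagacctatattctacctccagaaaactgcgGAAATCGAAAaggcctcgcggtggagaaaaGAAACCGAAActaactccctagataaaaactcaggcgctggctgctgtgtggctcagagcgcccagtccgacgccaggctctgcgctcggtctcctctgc
IFIT1, plus strand, chr10:89392373-89392672: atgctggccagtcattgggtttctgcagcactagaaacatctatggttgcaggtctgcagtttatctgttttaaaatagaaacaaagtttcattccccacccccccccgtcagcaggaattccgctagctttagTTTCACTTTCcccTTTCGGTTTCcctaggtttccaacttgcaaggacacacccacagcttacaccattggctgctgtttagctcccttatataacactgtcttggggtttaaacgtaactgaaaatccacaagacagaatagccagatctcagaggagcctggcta
IFIT5, plus strand, chr10:89414318-89414617: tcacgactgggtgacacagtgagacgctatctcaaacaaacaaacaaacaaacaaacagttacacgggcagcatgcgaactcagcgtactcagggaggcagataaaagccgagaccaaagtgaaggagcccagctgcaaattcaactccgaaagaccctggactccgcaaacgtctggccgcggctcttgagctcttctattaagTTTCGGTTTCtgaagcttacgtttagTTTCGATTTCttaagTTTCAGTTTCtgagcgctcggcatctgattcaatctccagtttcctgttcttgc
DTX3L, plus strand, chr3:122564088-122564387: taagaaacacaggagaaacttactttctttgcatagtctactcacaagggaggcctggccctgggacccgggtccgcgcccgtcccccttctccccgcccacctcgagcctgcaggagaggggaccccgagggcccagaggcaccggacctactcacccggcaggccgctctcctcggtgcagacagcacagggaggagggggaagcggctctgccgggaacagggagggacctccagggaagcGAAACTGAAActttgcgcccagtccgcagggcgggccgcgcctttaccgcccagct
OAS1, plus strand, chr12:112906712-112907011: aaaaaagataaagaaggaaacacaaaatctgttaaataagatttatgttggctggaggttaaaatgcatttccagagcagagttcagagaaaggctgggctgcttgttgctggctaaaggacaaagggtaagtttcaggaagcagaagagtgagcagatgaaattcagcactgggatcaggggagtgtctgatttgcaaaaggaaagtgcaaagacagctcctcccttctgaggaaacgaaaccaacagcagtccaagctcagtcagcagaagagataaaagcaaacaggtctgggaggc
DDX60 and DDX60L each hold 2 matches in the gene's own direction, beginning at -88 and -53 in DDX60 and at -80 and -50 in DDX60L, with the first base of the gene as +1. IFIT1 holds 2 and IFIT5 holds 3, all on the opposite strand. A match is a run of letters and not a measured binding site, and a window without one lacks only these letters.

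Reads in genes numbered 13424356 to 17012910 per library. Levels below are CPM, each count scaled to the size of its library after TMM normalisation, and each log2 fold change sets the libraries labelled knockout over the controls. ZFP90 RNA itself was higher where the label says knockout (log2 fold change 0.90, SE 0.066; edgeR adjusted p = 5.1e-05), and counts per gene cannot tell whether exon 3 was altered. Markers of colorectal epithelium summed to 2713 to 2846 CPM in the controls and 2686 to 2809 CPM in the libraries labelled knockout, although CDX1 was at 0 in all libraries and VIL1, GPA33 and LGALS4 had only 4 to 15 reads per group. Leukocyte markers reached at most 5.002 CPM in a control and 5.86 CPM in a library labelled knockout, with CD3D, CD3E, MS4A1 and CLEC4C at 0 throughout. Markers of fibroblasts and endothelium summed to 74.9 to 96.01 CPM in the controls and 75.04 to 96.9 CPM in the other group, most of it COL1A1 (means 73.9 and 74.3 CPM), with PECAM1 at 0. Control replicate 2 had 81.1% of the level of its fellow controls on chromosome 7 and 70.9% on chromosome 9, where SAMD9 and DDX58 lie, the 2 tested interferon-stimulated genes on chromosomes where it was low.

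Interferon-stimulated genes moved in both directions, with more of them lower than higher. In bulk libraries such as these, fewer cells with a transcript and less of it per cell cannot be told apart. Of the 41 genes, 33 passed the count filter, and 4 of these were higher and 11 lower at an adjusted p under 0.05. That is 45.5% of those tested, where 21.1% of the 16369 genes tested in all were called, 9.73% higher and 11.4% lower. OAS1 was higher by over 2-fold, as were 1.25% of all genes tested, and IFIT1, IFITM2 and PARP9 were lower by over 2-fold, as were 1.95%. PARP9 was at that limit (log2 fold change -1.001) and had -0.85 without control replicate 2. With that replicate corrected along the genome, PARP9 had -0.97 and IFITM2 -0.98, both under 2-fold. The median log2 fold change of the 33 genes was -0.23, with 24 below 0, beside a median of 0.0084 over all genes tested, of which 48.6% were below 0. With library size as the only scaling, 3 were higher and 12 lower, and all genes split into 986 higher and 2343 lower in place of 1593 and 1861. In CPM the groups did not overlap for 5 genes that were higher and 12 that were lower, 17 in all, where 41.2% of all genes tested did not overlap, 20.9% higher and 20.3% lower. With each library left out in turn, 11 of the 15 calls held in all 6 cases, and STAT2, HERC5, DDX60 and PARP14 each lost theirs at least once. Without control replicate 2, 6 were higher and 11 lower, with OAS3, IFI27 and DDX58 added and PARP14 lost, where 27.7% of all genes were called, 13.5% higher and 14.1% lower.

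**Figure D1:**
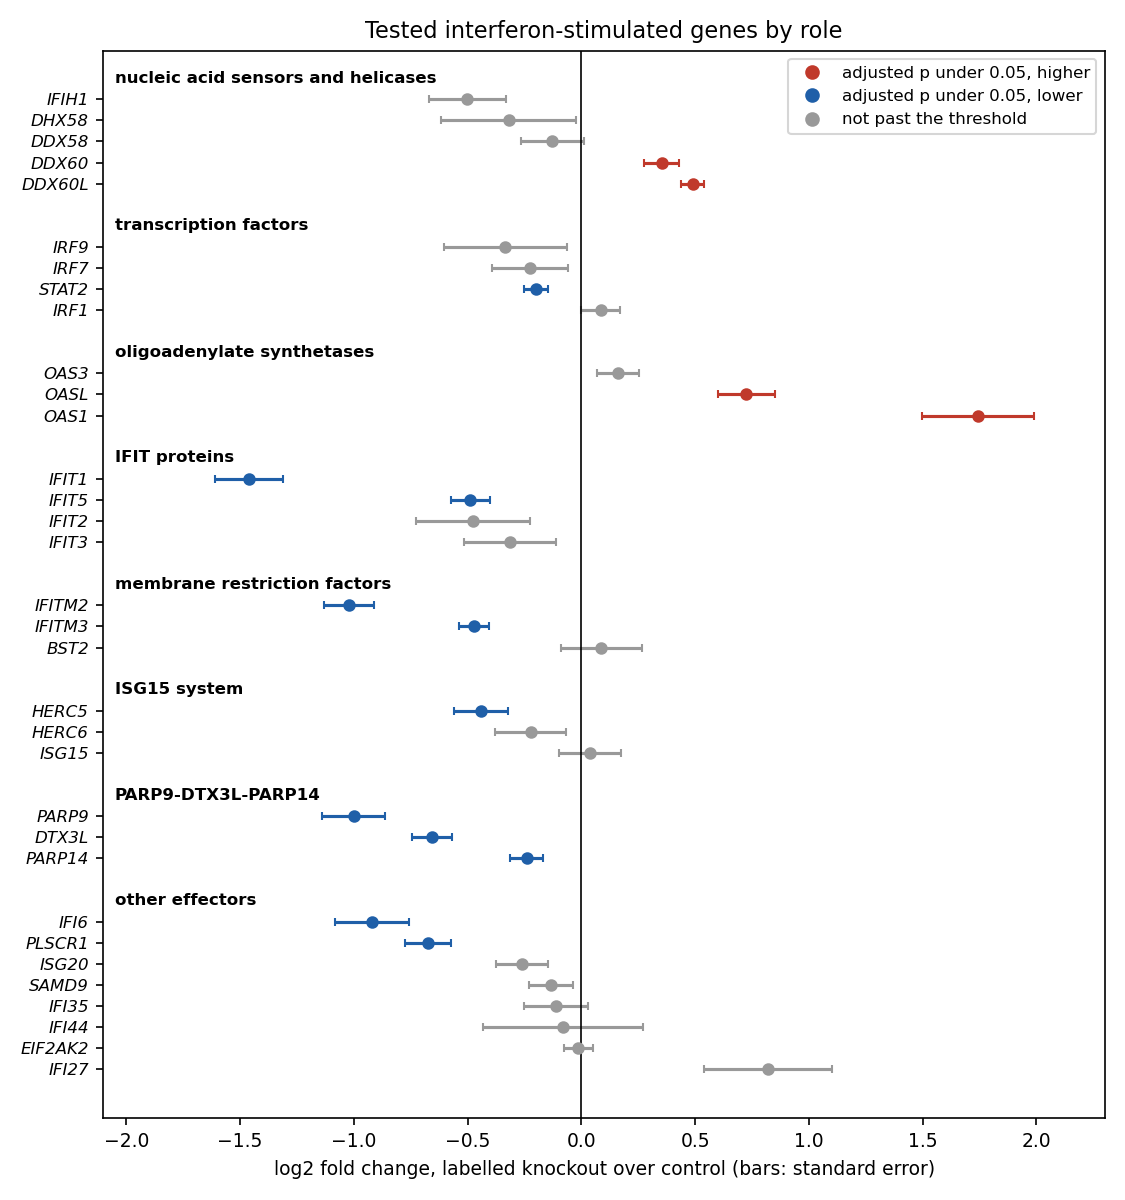
Log2 fold change of each of the 33 tested interferon-stimulated genes (points) with its standard error (bars), labelled knockout over control, grouped by role; red marks the 4 called higher, blue the 11 called lower and grey the 18 not called. The 3 tested oligoadenylate synthetase genes lie above 0, and the 4 IFIT genes and PARP9, DTX3L and PARP14 lie below it.

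Basal levels differed widely between these genes. Compared as CPM per kilobase of annotated exon, the controls held most RNA of IFITM3, an endosomal membrane protein that hinders viral fusion, at 124 ± 9.52 (SD, n = 3). ISG15, a ubiquitin-like modifier, followed at 51.95 ± 9.76 and STAT2 at 17.9 ± 0.859 on the same scale. PLSCR1 (15.6 ± 1.801) and IFITM2 (15.5 ± 1.91) came next and differed by less than their SD, as did EIF2AK2 (12.2 ± 0.998) and DDX60L (12.2 ± 0.216). IFI44L, MX2, SAMD9L, XAF1, OAS2, RSAD2, MX1 and OAS1 were lowest, from 0.0040 to 0.169 per kilobase. The CPM of all 41 genes summed to 1073, 1165 and 1045 in the controls and to 979, 1036 and 984 in the libraries labelled knockout. These sums did not overlap, and IFITM3 alone went from a mean of 168 to 121 CPM.

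Oligoadenylate synthetases make short oligoadenylates that activate the nuclease RNase L, and 2 of the 3 tested genes of this family rose. OAS1 (chr12:112906777-112933222, plus strand; gene positions here are GRCh38) measured 1.17, 0.658 and 0.672 CPM in the controls and 2.84, 2.84 and 2.88 CPM in the libraries labelled knockout. The libraries labelled knockout lay within a narrow range above the highest control, which was replicate 1. It rose by 1.74 on the log2 scale (SE 0.25; edgeR adjusted p = 0.00176), from 38 control reads in all to 131. OASL, a family member without synthetase activity that enhances RIG-I signalling, lies apart (chr12:121019111-121039242, minus strand). It measured 8.95, 9.02 and 7.24 CPM in the controls and 15.5, 13.8 and 12.5 CPM in the libraries labelled knockout, so the groups did not overlap (log2 fold change 0.73, SE 0.13; edgeR adjusted p = 0.00496). OAS3, whose product senses long double-stranded RNA, measured 24.2, 29.02 and 24.7 CPM in the controls and 27, 29.6 and 30.6 CPM in the libraries labelled knockout. Control replicate 2 fell inside the other group's range, and OAS3 was not called (log2 fold change 0.16, SE 0.091; edgeR adjusted p = 0.247) except without that replicate (log2 fold change 0.25, adjusted p = 0.0318). OAS2 had 7 reads in all controls together and 9 in the other group and was not tested.

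**Figure D2:**
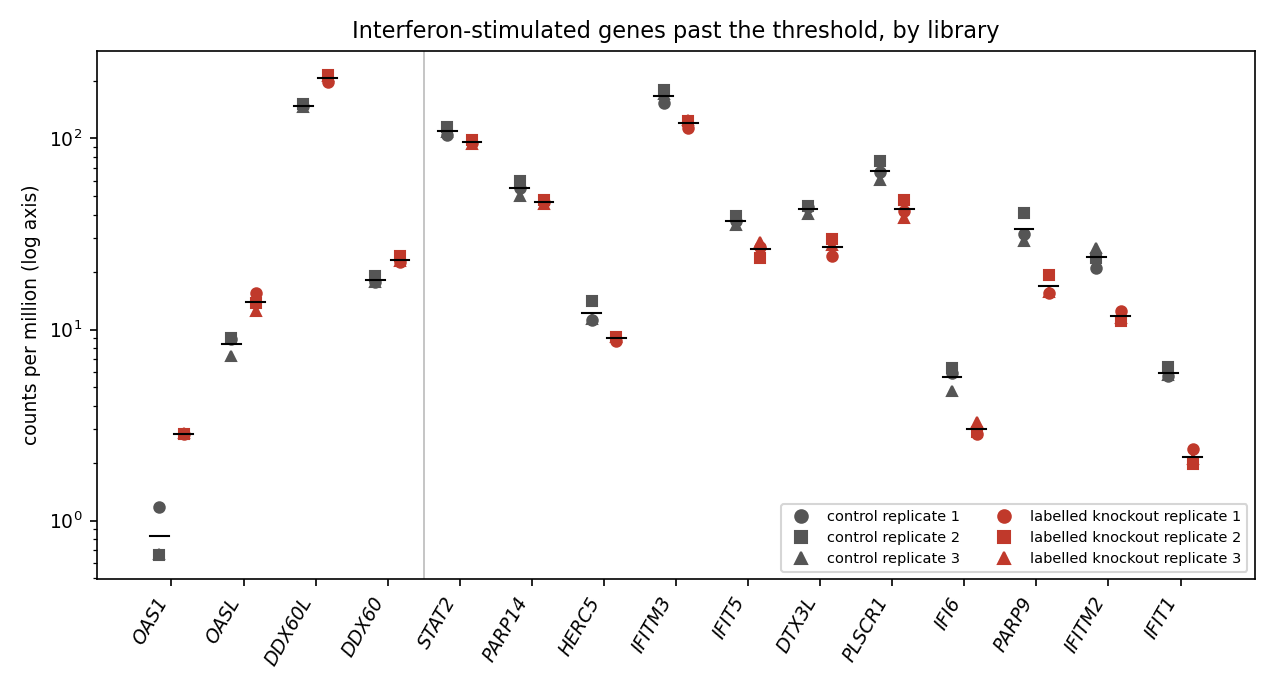
CPM on a log axis for the 15 interferon-stimulated genes past the threshold, with 1 point per library (grey control, red labelled knockout; symbols mark the replicate) and a bar at each group mean. The 4 genes left of the vertical line were higher and the 11 to its right lower, and the groups overlap in none of these 15.

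IFIT proteins bind viral RNA and hinder its translation, and their 4 genes lie in a row on the plus strand of chromosome 10 in the order IFIT2, IFIT3, IFIT1, IFIT5. IFIT1 (chr10:89392546-89406486, plus strand) measured 5.68, 6.38 and 5.75 CPM in the controls and 2.36, 1.99 and 2.09 CPM in the libraries labelled knockout. Every library labelled knockout was well below the lowest control (log2 fold change -1.46, SE 0.15; edgeR adjusted p = 0.000341). IFIT5 (chr10:89414586-89421001, plus strand) measured 36.97, 39.2 and 35.4 CPM in the controls and 26.9, 23.8 and 28.8 CPM in the libraries labelled knockout, again without overlap, and it fell by 0.49 on the log2 scale (SE 0.085; edgeR adjusted p = 0.00485). IFIT2 measured 4.57, 4.41 and 2.54 CPM in the controls and 3.14, 3.05 and 2.16 CPM in the libraries labelled knockout, with control replicate 3 among the other group. IFIT3 measured 2.28, 2.11 and 2.46 CPM against 1.75, 2.199 and 1.57 CPM, and replicate 2 labelled knockout lay among the controls. Neither passed the threshold (log2 fold change -0.48, SE 0.25; edgeR adjusted p = 0.214 for IFIT2; log2 fold change -0.31, SE 0.20; edgeR adjusted p = 0.302 for IFIT3).

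Membrane restriction factors act at viral entry or release, and both tested IFITM genes fell. IFITM3 (chr11:319669-327537, minus strand) measured 154, 179 and 171 CPM in the controls and 114, 123 and 125 CPM in the libraries labelled knockout, and the groups stood apart (log2 fold change -0.47, SE 0.067; edgeR adjusted p = 0.00181). IFITM2 (chr11:307631-315272, plus strand) measured 20.9, 23.8 and 26.8 CPM against 12.6, 11.1 and 11.5 CPM, with the highest library labelled knockout far below the lowest control (log2 fold change -1.02, SE 0.11; edgeR adjusted p = 0.000429). IFITM1 had 12, 15 and 8 reads in the controls and 9, 8 and 4 in the other group, which put it under the filter. The reads overlapped, but the CPM did not (0.741, 0.987 and 0.597 against 0.544, 0.567 and 0.262). These genes are near-identical copies, and 351 exon bases of IFITM2 (22.75%) are also annotated to IFITM1. How reads from such sequence were counted is not known here, so the count of each gene is uncertain. BST2, which encodes tetherin, a protein that holds budding virions at the cell surface, measured 3.46, 4.74 and 3.21 CPM against 3.93, 3.97 and 4.25 CPM with overlap (log2 fold change 0.09, SE 0.18; edgeR adjusted p = 0.769).

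PARP9 and its partner DTX3L, a ubiquitin ligase, form a complex, and PARP14 is a mono-ADP-ribosyltransferase encoded nearby on chromosome 3. All 3 fell. PARP9 (chr3:122527924-122564577, minus strand) measured 31.5, 40.7 and 29.04 CPM in the controls and 15.6, 19.4 and 15.8 CPM in the libraries labelled knockout (log2 fold change -1.001, SE 0.14; edgeR adjusted p = 0.00168). DTX3L (chr3:122564238-122575203, plus strand) measured 43.8, 44.5 and 40.02 CPM against 24.2, 29.7 and 27.6 CPM (log2 fold change -0.66, SE 0.087; edgeR adjusted p = 0.00131). In both genes every library labelled knockout was below every control. PARP14 (chr3:122680618-122730840, plus strand) measured 54.8, 59.7 and 50.2 CPM against 46.6, 47.8 and 45.2 CPM, a narrow gap without overlap (log2 fold change -0.24, SE 0.072; edgeR adjusted p = 0.0464). The PARP14 call held without control replicate 3 but in none of the other 5 leave-one-out cases (adjusted p up to 0.151), nor with DESeq2 (adjusted p = 0.101). In GENCODE, PARP9 and DTX3L overlap by 340 bases on opposite strands, of which 217 are exonic in both. Without strand, reads there cannot be assigned to either, and the strand setting is not known here. The single ISRE core match that their RefSeq windows share, chr3:122564332-122564341, is the capital run of the DTX3L window above. It begins at -6 for DTX3L, so it runs across that start, and at -41 for a start of PARP9.

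The ISG15 system attaches ISG15 to other proteins; HERC5 is its ligase in human cells and HERC6 a related gene beside it. HERC5 (chr4:88457117-88506163, plus strand) measured 11.2, 14.1 and 11.3 CPM in the controls and 8.76, 9.15 and 9.097 CPM in the libraries labelled knockout. The groups did not overlap, and control replicate 2 was the highest library. It fell by 0.44 on the log2 scale (SE 0.12; edgeR adjusted p = 0.0309), but the call was lost without any single library labelled knockout (adjusted p from 0.073 to 0.108) and with DESeq2 (adjusted p = 0.0568). HERC6 measured 7.59, 9.21 and 6.64 CPM against 6.71, 7.59 and 5.89 CPM, with overlap (log2 fold change -0.22, SE 0.16; edgeR adjusted p = 0.346). ISG15 measured 47.3, 58.8 and 40.6 CPM against 52.3, 55.5 and 43.1 CPM, so its controls spread wider than the groups differed (log2 fold change 0.04, SE 0.14; edgeR adjusted p = 0.872), and its sign turned under 3 alternatives.

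Among the sensors and helicases, DDX60 and DDX60L rose. DDX60 encodes a helicase described as a promoter of RIG-I signalling, and DDX60L is its paralogue. DDX60L (chr4:168356735-168537786, minus strand) measured 148, 151 and 146 CPM in the controls and 197, 216 and 212 CPM in the libraries labelled knockout. The controls lay close together and the other group well above them (log2 fold change 0.49, SE 0.050; edgeR adjusted p = 0.000336). DDX60 (chr4:168216293-168318807, minus strand) measured 17.7, 19.2 and 17.7 CPM against 22.5, 24.3 and 22.97 CPM, also without overlap (log2 fold change 0.35, SE 0.077; edgeR adjusted p = 0.013). The DDX60 call did not hold without control replicate 1 (adjusted p = 0.0571) or with library size as the only scaling (adjusted p = 0.0563). As paralogues they may have sequence in common, and how the authors' counting treated reads from it is not known here.

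The cytosolic RNA sensors themselves did not pass the threshold with all libraries as deposited, TMM scaling and the count filter. IFIH1, which encodes MDA5, a sensor of long double-stranded RNA, measured 12.5, 14.5 and 9.56 CPM in the controls and 9.85, 8.58 and 7.46 CPM in the libraries labelled knockout. Control replicate 3 fell within the other group (log2 fold change -0.50, SE 0.17; edgeR adjusted p = 0.0647), and without it IFIH1 was called lower (log2 fold change -0.64, adjusted p = 0.0239). It was also called lower with all libraries under library size alone (edgeR adjusted p = 0.0294), no count filter (0.00298), the replicate number as a block (0.0346) and a correction of control replicate 2 along the genome (0.0228). Of these settings, library size alone, no count filter and the correction also called more of all genes lower (2343, 2099 and 2519, in place of 1861). DDX58, which encodes RIG-I, lies on chromosome 9 and measured 30.2, 21.1 and 31.8 CPM against 26.2, 24.5 and 25.2 CPM. Control replicate 2 was the lowest of the 6 libraries there and the other controls were the highest. With all libraries as deposited DDX58 was not called (log2 fold change -0.13, SE 0.14; edgeR adjusted p = 0.554). It was lower without control replicate 2 (log2 fold change -0.29, adjusted p = 0.00972) and with that replicate corrected (adjusted p = 0.00965). DHX58, which encodes LGP2, a regulator of both sensors, had 10 to 20 reads per library and was not called (log2 fold change -0.32, SE 0.30; edgeR adjusted p = 0.49).

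Of the transcription factors that carry the response, STAT2 was called. STAT2 (chr12:56341597-56360155, minus strand) measured 105, 115 and 109 CPM in the controls and 94.3, 98.1 and 93.8 CPM in the libraries labelled knockout, a small drop without overlap (log2 fold change -0.20, SE 0.054; edgeR adjusted p = 0.0305). The call was lost without control replicate 3 or any single library labelled knockout (adjusted p up to 0.109), with DESeq2 (adjusted p = 0.0854) and with no count filter (adjusted p = 0.0504). Its partner IRF9 had 22 to 48 reads per library (log2 fold change -0.33, SE 0.27; edgeR adjusted p = 0.417). IRF7, which amplifies interferon production, measured 9.44, 12.4 and 9.18 CPM against 7.49, 10.7 and 8.51 CPM (log2 fold change -0.23, SE 0.17; edgeR adjusted p = 0.378), and IRF1, an early inducible factor, measured 30.1, 30.9 and 32.1 CPM against 35.8, 33.9 and 29.1 CPM (log2 fold change 0.09, SE 0.086; edgeR adjusted p = 0.515). In IRF9, IRF7 and IRF1 the groups overlapped.

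Among the remaining effectors, PLSCR1 and IFI6 fell. PLSCR1 (chr3:146515180-146544864, minus strand), a phospholipid scramblase with antiviral activity, measured 66.4, 76.3 and 60.9 CPM in the controls and 41.5, 47.8 and 38.5 CPM in the libraries labelled knockout (log2 fold change -0.67, SE 0.10; edgeR adjusted p = 0.00253). IFI6 (chr1:27666061-27672218, minus strand), a small membrane protein that counters cell death, measured 5.93, 6.32 and 4.78 CPM against 2.84, 2.91 and 3.27 CPM (log2 fold change -0.92, SE 0.16; edgeR adjusted p = 0.00496). In both the groups stood apart. IFI27, a relative of IFI6, measured 1.42, 3.55 and 2.02 CPM in the controls and 4.23, 3.83 and 4.25 CPM in the libraries labelled knockout. The groups did not overlap, but control replicate 2 lay nearer to the other group than to the controls. IFI27 did not pass the threshold (log2 fold change 0.82, SE 0.28; edgeR adjusted p = 0.0717), whereas without control replicate 2 it did (log2 fold change 1.28, adjusted p = 0.00037). With all libraries it was called higher by limma-voom (adjusted p = 0.0488), with no count filter in edgeR (0.00134) and with control replicate 2 corrected (0.0186), but not by DESeq2 (0.0774). Those 2 edgeR settings also called more of all genes higher (2252 and 2492, in place of 1593). The correction draws control replicate 2 toward its fellow controls by design. EIF2AK2, which encodes PKR, a kinase that blocks translation, measured 136, 139.6 and 119 CPM against 128, 135 and 129 CPM, the second group lying inside the range of the first (log2 fold change -0.01, SE 0.065; edgeR adjusted p = 0.91). The exonuclease gene ISG20 measured 7.72, 8.75 and 8.21 CPM against 6.83, 7.23 and 6.54 CPM, without overlap but not past the threshold (log2 fold change -0.26, SE 0.11; edgeR adjusted p = 0.137). SAMD9, IFI35 and IFI44 had log2 fold changes of -0.13, -0.11 and -0.08, with overlap.

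The 8 genes under the count filter had 0 to 19 reads per library. SAMD9L, a growth-restraining paralogue of SAMD9, had 2, 2 and 1 reads in the controls and 9, 7 and 9 in the libraries labelled knockout. Adjusted for library size, the ratio of the summed reads was 4.88, with an exact 95% interval of 1.83 to 16.3 that covers counting error only. With no filter on low counts SAMD9L was called higher (log2 fold change 2.21, SE 0.67; edgeR adjusted p = 0.0117), and the other 7 under the filter were not. In that fit 2252 of all genes were higher and 2099 lower, in place of 1593 and 1861. Its adjusted p-values are on another scale than those with the filter. IFIT1, for 1, had an edgeR adjusted p = 3.86e-11 there and 0.000341 with the filter. SAMD9L lies on chromosome 7, where control replicate 2 was low, and the other controls were below every library labelled knockout too. RSAD2, which encodes viperin, had 1, 8 and 3 reads against 5, 16 and 5, with overlap. MX1, an antiviral GTPase, had 10, 19 and 13 reads against 11, 7 and 9, also with overlap. MX2, XAF1 and OAS2 had 0 to 5 reads per library, and IFI44L had 2 reads in control replicate 1 and 0 elsewhere.

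Genes of the same cluster were then set against each other as CPM ratios with 0.5 added to each value, which narrows the difference between the groups where a gene is low. Many of the 13 pairs share a gene, so they are not independent. In 9 of them the ratio did not overlap between the groups, and each of these had p = 0.1 (exact permutation test over libraries, two-sided), the smallest that 3 against 3 allows. Adjusted over the pairs this was 0.144, so no pair could pass. Each of these 9 pairs holds a gene called above. Taken singly, 41.2% of all genes tested did not overlap, and the share among other neighbouring pairs was not counted. OAS1 and OAS3 lie 5130 bases apart on the same strand, and OAS1 over OAS3 was 0.0677, 0.0392 and 0.0465 in the controls and 0.121, 0.111 and 0.109 in the libraries labelled knockout, a difference of 1.19 in log2 ratio. IFIT1 over IFIT5, 8100 bases apart, was 0.165, 0.174 and 0.174 in the controls and 0.104, 0.102 and 0.0886 in the libraries labelled knockout (-0.80). IFIT3 over IFIT1 was 0.451, 0.379 and 0.474 in the controls and 0.788, 1.09 and 0.798 in the libraries labelled knockout (1.03). The IFIT1 ratios thus separated the groups, while the ratios among IFIT2, IFIT3 and IFIT5 overlapped, with log2 differences from -0.12 to 0.23. PARP9 was lower relative to DTX3L (log2 difference -0.32) and to PARP14 (-0.74), as was IFITM2 relative to IFITM3 (-0.52). DDX60 over DDX60L was 0.123, 0.1295 and 0.124 in the controls and 0.116, 0.115 and 0.1104 in the libraries labelled knockout (-0.14), the smallest difference of the 9. HERC6 over HERC5 overlapped between the groups (0.21).

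**Figure D3:**
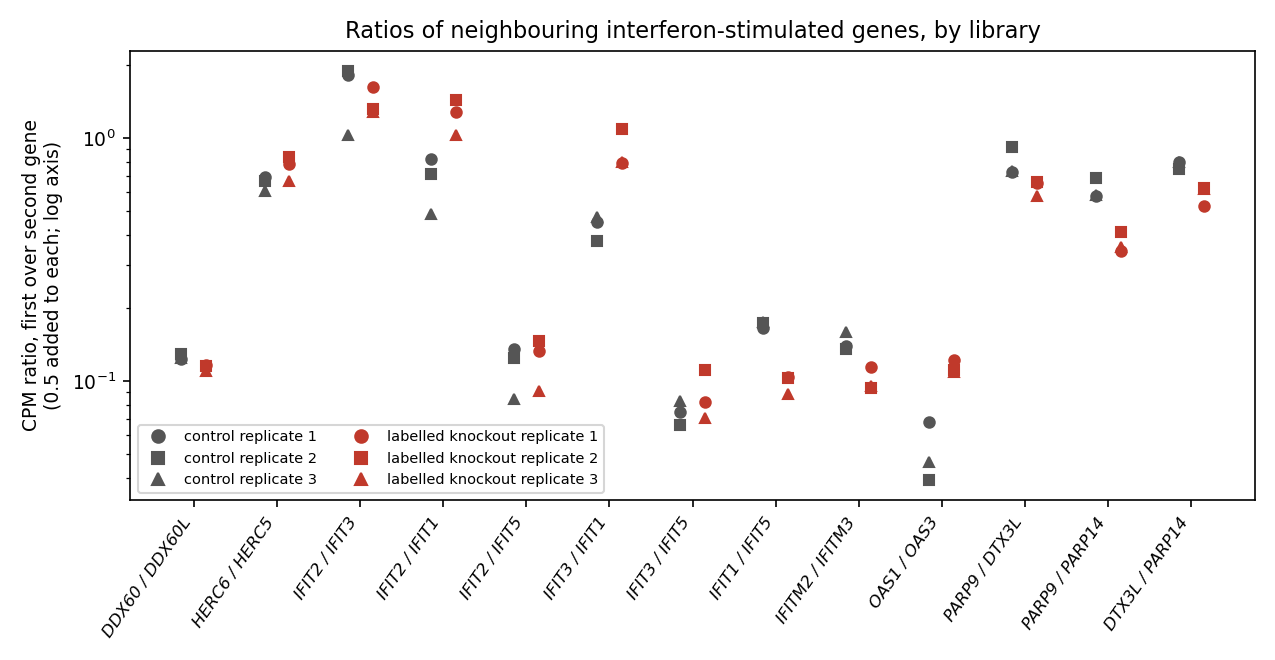
CPM ratio of interferon-stimulated genes in the same genomic cluster (0.5 added to each) on a log axis, 1 point per library (grey control, red labelled knockout; symbols mark the replicate), for 13 pairs. OAS1 over OAS3 is higher and IFIT1 over IFIT5 lower in every library labelled knockout, while IFIT2 over IFIT3, IFIT2 over IFIT5, IFIT3 over IFIT5 and HERC6 over HERC5 overlap.

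Summed over each cluster and tested as 1 feature, the IFIT genes fell by 0.57 on the log2 scale (edgeR adjusted p = 0.00104), the IFITM genes by 0.53 (0.000819) and PARP9, DTX3L and PARP14 by 0.54 (0.00195). The DDX60 sum rose by 0.47 (edgeR adjusted p = 0.000401). Most of the IFIT sum was IFIT5, most of the IFITM sum IFITM3 and most of the DDX60 sum DDX60L. Each of these was called singly above, so their sums largely repeat those calls. The OAS sum, most of which was OAS3, had a log2 fold change of 0.25 (edgeR adjusted p = 0.0746) and the HERC sum -0.35 (0.0563), neither called. The MX (-0.65, edgeR adjusted p = 0.239), IFI44 (-0.16, 0.771) and SAMD9 (-0.11, 0.466) sums were not called either. In that fit 21% of all features were called, 9.51% higher and 11.5% lower.

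DDX60 and DDX60L lie in a stretch of chromosome 4 in which ANXA10 and PALLD, which are outside the set, rose as well. This stretch was chosen after its values were seen. ANXA10, which encodes an annexin and lies 28603 bases from DDX60 on the opposite strand, measured 14.8, 12.8 and 17.5 CPM in the controls and 127, 125 and 134 CPM in the libraries labelled knockout (log2 fold change 3.10, SE 0.098; edgeR adjusted p = 1.1e-06). PALLD, which encodes the actin-binding protein palladin, starts within the span that GENCODE gives DDX60L, on the opposite strand, and measured 149, 135 and 154 CPM against 304, 295 and 339 CPM (log2 fold change 1.10, SE 0.070; edgeR adjusted p = 2.57e-05). In both genes the groups stood far apart. In GENCODE, PALLD and DDX60L overlap by 40721 bases and share 0 annotated exon bases, though intronic reads of one could not be told from the other without strand. The RefSeq start of DDX60L used for its window above lies 57294 bases inside that span, and PALLD starts outside a DDX60L gene that begins there. Within 2 Mb on either side, 5 of 11 tested genes with a known position were higher and 2 lower. The 5 include DDX60, DDX60L, ANXA10 and PALLD, for which the stretch was chosen. Of the other 7, 1 was higher and 2 lower, where 9.73% of all genes tested were higher and 11.4% lower. CBR4, the higher gene among them, rose by 0.24 (SE 0.065; edgeR adjusted p = 0.0303), a call held in 2 of 6 leave-one-out cases. SH3RF1, farther along, fell by 0.53 (SE 0.061; edgeR adjusted p = 0.000601), and CLCN3 by 0.16 (SE 0.045; edgeR adjusted p = 0.0364), the latter held in 2 of 6 cases. Whether DDX60 and DDX60L rose with the region was not tested.

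**Figure D4:**
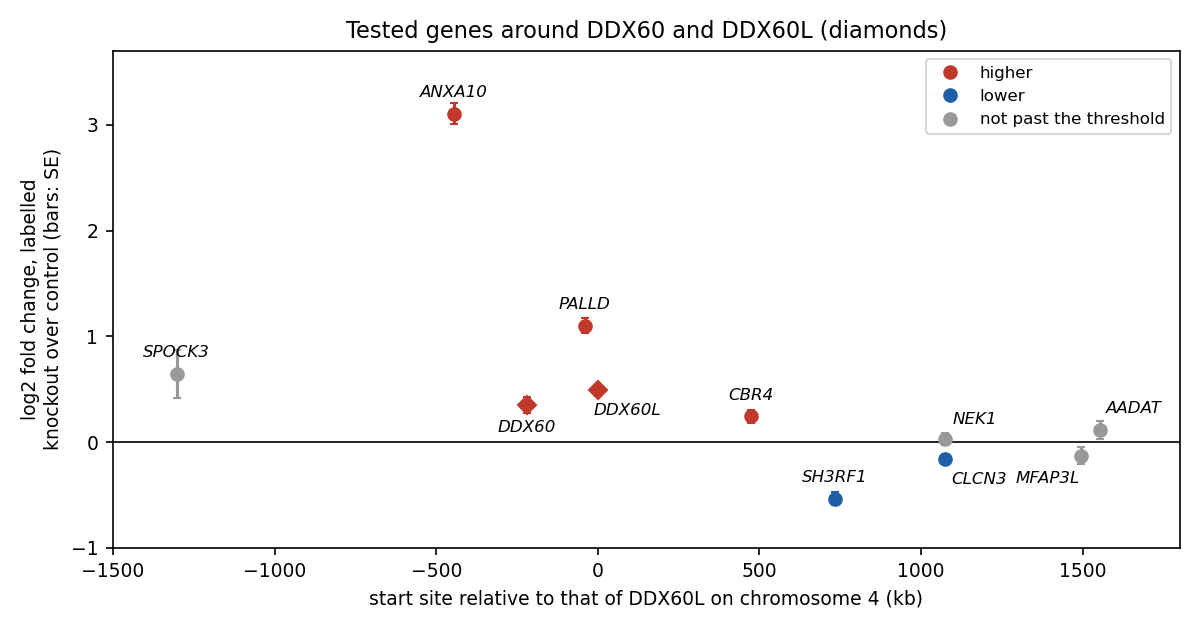
Log2 fold change with its standard error, labelled knockout over control, for the 11 tested genes with a known position within 2 Mb of DDX60 and DDX60L (diamonds). The horizontal axis gives the distance in kb of each start site from that of DDX60L, both as GENCODE gives them. ANXA10, DDX60, PALLD, DDX60L and CBR4 were called higher (red), and SH3RF1 and CLCN3 lower (blue).

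Genes beside the set were counted too, among tested genes with a known position. Within 50000 bases, 29 of the 41 genes had 34 tested neighbours from outside the set, of which 5 were higher (ANXA10, PALLD, VAT1, B4GALNT4 and HES4) and 2 lower, with a median log2 fold change of 0.053, where 9.73% of all genes tested were higher and 11.4% lower. Of the higher ones, VAT1 (edgeR adjusted p = 0.0499) and B4GALNT4 kept their call in 2 and HES4 in 1 of 6 leave-one-out cases. LIPA, a lipase gene that overlaps IFIT2, IFIT3 and IFIT1 on the opposite strand, was not called (log2 fold change -0.22, SE 0.089; edgeR adjusted p = 0.109). KPNA1 beside PARP9 had a log2 fold change of -0.08 (edgeR adjusted p = 0.389). HSPBAP1 beside PARP14 fell by 0.41 (edgeR adjusted p = 0.0222), held in 2 of 6 leave-one-out cases. HEATR5B beside EIF2AK2 fell by 0.50 (edgeR adjusted p = 0.000604).

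The ISRE core match occurred among genes called in either direction. It was present in 2 of 3 higher genes with a window (DDX60 and DDX60L), in 9 of 10 lower genes (all but STAT2), in 10 of 15 genes not called and in 4 of 6 under the filter. TTC, any 3 bases and GAA, the core of the GAS element bound by STAT dimers, reads the same on both strands and was found in 11 of the 34 genes (32.4%) against 9.38% of all genes with a window. It was present in DDX60 and OAS1 among the higher genes and in PARP14 and PLSCR1 among the lower. IFIT2, IFITM2, MX2, OAS2, OASL, IRF7 and DHX58 had no matched window.

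The rest of the pathway was followed through 5 further lists, whose counts stand beside the 21.1% called among all genes tested. Of 8 interferon ligand genes, IFNG had 0 reads and IFNE, a type I interferon of epithelia, reached 40 in a library, while the other 6 had at most 3. Of 15 tested ligands, receptors, kinases and factors, 1 rose and 4 fell, of which 3 are given here. IFNAR1, a chain of the type I receptor, fell by 0.27 (SE 0.051; edgeR adjusted p = 0.00729), from 67.2 ± 0.243 to 55.8 ± 1.23 CPM (SD, n = 3). JAK1 fell by 0.19 (edgeR adjusted p = 0.0436) and IFNLR1, the specific chain of the type III receptor, by 0.36 (0.0452), each held in only 1 of 6 leave-one-out cases. IFNGR1, a chain of the interferon gamma receptor on chromosome 6, rose by 0.38 (edgeR adjusted p = 0.0263), held in 3 of 6 leave-one-out cases (adjusted p up to 0.0897), and by 0.26 without control replicate 2, which was at 88.02% of the other controls on that chromosome.

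Of 16 tested genes of nucleic acid sensing, 2 rose and 1 fell. MAVS, the adaptor below RIG-I and MDA5, rose by 0.24 (edgeR adjusted p = 0.00889), NLRC5, an activator of MHC class I genes, rose by 0.47 (0.0135), and SAMHD1, which hydrolyses nucleotides, fell by 0.30 (0.025). The MAVS call held in 6 of 6 leave-one-out cases, that of NLRC5 in 4 of 6 and that of SAMHD1 in 2 of 6. Of 14 genes listed as feedback inhibitors, SOCS3, an inhibitor of cytokine signalling, fell by 0.42 (edgeR adjusted p = 0.00689) and the phosphatase gene PTPN6 by 0.31 (0.013). ISG20L2, put in that list without evidence here of such a role, rose by 0.30 (edgeR adjusted p = 0.0104). ISG20L2 and PTPN6 each lost their call in 1 of 6 leave-one-out cases. Of 31 other interferon-induced genes tested, 4 rose and 1 fell. APOL6, an apolipoprotein L gene, rose by 0.89 (SE 0.13; edgeR adjusted p = 0.00202), HELZ2 by 0.38, LGALS3BP by 0.30 and N4BP1 by 0.20, and the nuclear body gene SP100 fell by 0.33. The N4BP1 call (edgeR adjusted p = 0.0349) held in 1 of 6 leave-one-out cases and the other 4 in all 6. Of 8 tested genes typical of interferon gamma, PSMB10, an immunoproteasome subunit, fell by 1.13 (SE 0.27; edgeR adjusted p = 0.0204), held in 3 of 6 leave-one-out cases, and the other 7 were not called. The median log2 fold changes of the 5 lists lay between -0.09 and 0.05.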

How the data were processed

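RNA of 3 control libraries and 3 libraries labelled ZFP90 knockout was analysed per gene symbol. The deposited values are raw read counts, 1 table per library. TopHat2 2.0.11 and HTSeq, with builds hg19 and GRCh37, are named per the submitters' processing notes. The strand setting is not given in the sources used here, so overlapping or antisense genes cannot be told apart. The 5 summary lines (31.7% to 32.4% of listed reads) were left out.

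Counts were tested with edgeR 4.0.16 (R 4.3.3): quasi-likelihood test, TMM, filterByExpr (minimum count 10, minimum total 15), with Benjamini-Hochberg adjustment over 16369 genes. The procedure was also run on simulated data with the same variability for every gene and nothing like the low chromosomes of control replicate 2. That run therefore does not show how the test behaves on these libraries. In a library, 3 reads equal 0.176 to 0.224 CPM. GENCODE release 29 (GRCh38) gave exon lengths and, by symbol alone, gene positions, as the counting used an older build. Of the tested genes, 83.8% could be given a position. Neighbour, region and chromosome values cover these alone, and the correction of control replicate 2 left the rest unchanged. Alternatives were other scalings, filters and thresholds, DESeq2 1.42.0, limma-voom (limma 3.58.1), a replicate block, summed clusters, leaving out each library, and correcting control replicate 2 along the genome (running median over 51 genes).

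The members, lists and tests were chosen with earlier results of these data known. The naming rule took all called members and those under the filter, uncalled members with a log2 fold change of at least 0.5 in size, up to 8 called genes per other list, and called neighbours within 50000 bases. Names outside it (LIPA, KPNA1, IFNE, the chromosome 4 stretch and the other uncalled members) were added after their values were seen. Some genes are not reported here.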

Additional observations from a re-analysis of the deposited data

How the results depend on the processing

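The interferon-stimulated genes called numbered 3 to 6 higher and 8 to 14 lower under the alternatives run, beside 4 and 11. There were 6 higher with no count filter (2252 of all genes higher) and without control replicate 2 (2261). The 14 lower came with that replicate corrected (2519 of all genes lower). There were 8 lower with DESeq2 (1392), at an adjusted p under 0.01 (869) and without any single library labelled knockout (1025 to 1410). Over all genes 1593 were higher and 1861 lower. With library size as the only scaling 986 were higher and 2343 lower. The counts were 2492 and 2519 with control replicate 2 corrected along the genome, and 618 and 869 at an adjusted p under 0.01. With 1 library left out they ranged from 756 to 2261 higher and 1025 to 2361 lower, lowest without replicate 1 labelled knockout and highest without control replicate 2; the counts were also over 1.5 times lower without replicate 3 labelled knockout (793 and 1125) and without control replicate 1 (934 and 1236). The cause was not tested. Signs turned for ISG15 (-0.0332 with library size alone) and, with 1 library left out, for ISG15 (-0.0762 to 0.19), IFI35 (-0.224 to 0.0155), IFI44 (-0.25 to 0.277), BST2 (-0.0131 to 0.277) and EIF2AK2 (-0.0784 to 0.0308), none of them called.

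With the replicate number as a block, 4 interferon-stimulated genes were higher and 12 lower, IFIH1 being added (adjusted p = 0.0346), and 1623 and 1840 of all genes. Deviations of same-numbered libraries correlated at r = 0.0491, 0.145 and 0.0933, so the numbers were not taken to pair the libraries, although each library correlated best with its own number. The mean log2 CPM of the tested interferon-stimulated genes also ranked alike by number. It was 3.88, 4.02 and 3.78 in the controls and 3.72, 3.77 and 3.67 in the libraries labelled knockout. With control replicate 2 corrected, IFI27 was called higher (edgeR adjusted p = 0.0186) and DDX58 (0.00965), IFIH1 (0.0228) and SAMD9 (0.0439) lower. That correction draws the replicate toward its fellow controls by design, which tends to narrow the spread of the controls. Calls over all genes rose with it too, so these added calls are not independent support. For genes with few reads, depth limits what could be detected.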
